A study of Mus musculus with 3 samples.

Results

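The genes described here encode the respiratory chain and ATP synthase from the nuclear genome, in B cells of the mouse spleen. They were taken by symbol: the NADH dehydrogenase genes whose symbols start with Nduf followed by a, b, c, s or v, the 4 succinate dehydrogenase genes, genes starting with Uqcr, Cyc1, the Cox4 to Cox8 families and genes starting with Atp5. A gene also needed at least 20 unique molecular identifiers (UMIs, each counting 1 captured transcript) over the whole gene table. Of 32285 genes in that table, 95 had a matching symbol and 90 passed the limit. They comprised 37 subunits of complex I, 8 assembly factors of complex I, 4 subunits of complex II, 9 of complex III, 15 of complex IV and 17 of complex V. Ndufa4 was counted with complex IV, of which it is a subunit. Outside the limit lay Cox8b, Cox8c and Cox7b2 with 0 UMIs, Cox4i2 with 5 and Ndufa4l2 with 6. Just inside it were Cox7a1 with 24, Cox6b2 with 58 and Ndufaf6 with 135. The 90 genes held 286009 UMIs, 1.57% of all UMIs in the table.

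The study asked what lactate dehydrogenase A (LDHA), the enzyme subunit that favours making lactate from pyruvate, does when germinal centre (GC) B cells become activated and divide. Spleen cells came from 3 LDHA-deficient and 3 LDHA-sufficient mice, which the labels of the hashtags call KO and WT. The promoter driving any recombinase, the cell types that lost LDHA, the strain, age and immunisation of the mice are not given in the labels used here. Cells of each mouse were marked with an antibody hashtag, sorted as viable B cells and by GL7, which marks GC B cells on their surface and also activated ones, and loaded together on 1 lane for droplet sequencing from the transcript start. The mouse was the replicate (n = 3 per genotype, n = 6 for a B cell state, unless stated otherwise). Between genotypes, p-values weigh a difference against the spread between mice. Between states, they weigh it against the spread of the difference within a mouse. Both spreads include the error of counting few cells.

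After filtering, 1849 cells with 1 hashtag remained and 1754 were of the B lineage. The 95 cells of a cluster led by myeloid genes, which also held plasmacytoid dendritic cell markers, were left out. They were not free of B cell RNA, with 906 UMIs of Cd79a and 722 of Ms4a1, against 23931 and 14031 in the B-lineage cells. Clusters were made without the 90 genes, without Ldha and without antibody, mitochondrial and ribosomal genes, and were named from marker genes. They gave 174 GC B-like cells, 117 activated B-like cells, 209 marginal zone B-like cells and 745 follicular B-like cells, with the remaining B cells in interferon-responding, plasma cell-like and 2 unnamed clusters. The follicular class joined a cluster of 481 cells led by Pgap1 and a cluster of 264 cells led by Klf2. Because the classes were defined on the same cells, a state comparison describes those classes and is no independent test of their existence. The 6 B lineage markers summed to 4568 to 8609 UMIs per 1000000 over the GC B-like and follicular cells of the mice. The labels of the hashtag library name progenitor cells. Of 5 progenitor markers, Cd34, Gata2 and Mpo had 0 UMIs in B-lineage cells, Kit had 7 and Flt3 82. Mpo had 0 UMIs in the left-out cells too.

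GC B-like cells were few in the LDHA-deficient mice, with 9, 7 and 5 cells, against 62, 75 and 16 cells in the LDHA-sufficient mice. They made up 3.38%, 1.96% and 2.14% of the sequenced B cells in the LDHA-deficient mice and 20.2%, 23.7% and 5.86% in the LDHA-sufficient mice. Cells were sorted by GL7 before loading, so these are shares of the sorted cells and not of B cells in the spleen. Total B cell UMIs per mouse ranged from 1100507 to 1681123 in the LDHA-deficient and from 1368245 to 2117077 in the LDHA-sufficient mice. The median cell held 10261 UMIs in the GC class, 5393 in the activated, 4724 in the marginal zone and 3345 in the follicular class. Over all B cells, every LDHA-deficient mouse had less Ldha, at 47.6, 47.6 and 69.1 UMIs per 1000000 UMIs of the mouse and class (CPM), against 239, 241 and 158 in the LDHA-sufficient mice (log2 change -1.96, adjusted p = 2.79e-04, edgeR quasi-likelihood test with Benjamini-Hochberg adjustment).

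Complex I, NADH dehydrogenase, and complex II, succinate dehydrogenase, pass electrons from fuels to ubiquinone. Complex III hands them to cytochrome c, complex IV, cytochrome c oxidase, passes them to oxygen, and complexes I, III and IV pump protons across the inner mitochondrial membrane. Complex V, ATP synthase, makes ATP as the protons flow back. Most subunits are encoded in the nucleus, while mitochondrial DNA encodes a core set in every complex except complex II. Resting B cells use little energy, and activation, rapid division and antibody production raise the demand.

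The start regions of a few genes on which the results turn are given here, from 250 bases before to 50 bases after the transcription start (RefSeq, GRCm38.p6, the mouse assembly also called mm10). Atp5g1, Atp5g2 and Atp5g3 encode the same mature subunit c of the ATP synthase ring and were not called in the same B cell states. Cox6a1, a subunit of complex IV, was higher in GC B-like cells than in both activated and follicular cells. Uqcrh, the hinge protein of complex III, was not called there. Capitals mark matches on either strand to GCGCA, any base and GCGC in a row, bound by NRF1, or CCGGAAG, the core bound by ETS factors such as GABPA, both known as regulators of respiratory genes. All 5 regions lie on the minus strand and are printed 5′ to 3′. They are chr15:102670998-102671297 (Atp5g2), chr2:73911277-73911576 (Atp5g3), chr11:96075582-96075881 (Atp5g1), chr5:115348909-115349208 (Cox6a1) and chr4:116075021-116075320 (Uqcrh).
Atp5g2: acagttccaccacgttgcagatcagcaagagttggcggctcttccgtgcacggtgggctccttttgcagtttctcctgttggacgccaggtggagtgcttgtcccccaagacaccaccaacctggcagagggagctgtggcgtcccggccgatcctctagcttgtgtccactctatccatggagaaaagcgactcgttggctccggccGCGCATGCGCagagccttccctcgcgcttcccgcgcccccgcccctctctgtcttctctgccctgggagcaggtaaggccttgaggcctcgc
Atp5g3: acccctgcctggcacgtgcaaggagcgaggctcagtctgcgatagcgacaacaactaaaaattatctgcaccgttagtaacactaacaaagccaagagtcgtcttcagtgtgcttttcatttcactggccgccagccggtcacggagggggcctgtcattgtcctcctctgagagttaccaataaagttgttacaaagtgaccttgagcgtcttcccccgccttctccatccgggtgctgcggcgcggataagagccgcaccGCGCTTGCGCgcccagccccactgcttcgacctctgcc
Atp5g1: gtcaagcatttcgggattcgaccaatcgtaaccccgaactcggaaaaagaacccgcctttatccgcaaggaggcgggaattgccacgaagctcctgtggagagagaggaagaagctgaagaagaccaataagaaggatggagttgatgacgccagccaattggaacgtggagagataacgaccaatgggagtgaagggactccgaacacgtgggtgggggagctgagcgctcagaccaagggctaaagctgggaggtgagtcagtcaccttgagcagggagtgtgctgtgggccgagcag
Cox6a1: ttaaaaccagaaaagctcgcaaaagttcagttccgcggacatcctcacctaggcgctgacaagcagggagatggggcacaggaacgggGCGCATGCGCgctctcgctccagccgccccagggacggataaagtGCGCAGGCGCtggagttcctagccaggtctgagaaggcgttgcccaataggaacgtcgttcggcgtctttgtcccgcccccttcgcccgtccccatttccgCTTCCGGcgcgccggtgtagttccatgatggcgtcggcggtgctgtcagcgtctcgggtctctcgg
Uqcrh: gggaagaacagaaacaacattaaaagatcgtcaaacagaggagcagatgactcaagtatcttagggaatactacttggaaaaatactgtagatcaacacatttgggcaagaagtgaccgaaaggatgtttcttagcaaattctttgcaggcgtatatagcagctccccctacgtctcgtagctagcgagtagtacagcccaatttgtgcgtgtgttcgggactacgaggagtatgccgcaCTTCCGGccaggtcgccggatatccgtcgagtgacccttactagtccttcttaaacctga

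A region was on hand for 75 of the 90 genes. Of these, 19 (25.3%) held the NRF1 letters in at least 1 region. The share was 5.19% over all 27025 genes with a promoter region of this length. Among the genes tested between GC B-like and follicular cells, it was 13.9% of the 4552 with such a region. The ETS letters were in 19 (25.3%), against 9.93% of all and 25.4% of the tested genes. AAGATGGCG, bound by YY1, was in 8 (10.7%), against 1.64% of all and 4.92% of the tested genes. The NRF1 letters were in 7 of 33 complex I genes, 2 of 3 of complex II, 1 of 5 of complex III, 1 of 12 of complex IV, 6 of 15 of complex V and 2 of 7 assembly factors. In the regions printed above, 1 per gene, Atp5g2 and Atp5g3 each held 1 NRF1 match and Atp5g1 none. Cox6a1 held 2 NRF1 matches and 1 ETS match, and Uqcrh 1 ETS match. A match is a description of the letters, and no match says only that these letters are not in this window.

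Levels are given in CPM, and since a transcript is counted from its start, no length term enters. Many of these genes have processed pseudogenes, and how reads matching several places were counted is not stated by the sources used here. The most abundant members over the whole table were Atp5e (11856 UMIs), the epsilon subunit of ATP synthase, Cox8a (10001), Cox4i1 (9804), Atp5g2 (9077), Atp5g3 (8326), Cox7c (7550) and Uqcrh (7450). In complex I the highest were Ndufb1-ps (5580 UMIs), annotated as a noncoding RNA in the reference release used here, and Ndufa3 (4254). Complex II was the least abundant, with Sdha at 2418, Sdhb at 1791, Sdhd at 1181 and Sdhc at 668 UMIs. Over all B cells, complex V gave a mean of 33.4% of the members' UMIs, complex I 28.6%, complex IV 25.2%, complex III 9.46%, complex II 2.08% and the assembly factors 1.29%.

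Of each pair or trio of isoforms in complex IV, B cells used mainly the widely expressed form. Cox6a1 had 2809 UMIs in B-lineage cells and the heart and muscle form Cox6a2 14. Cox4i1 had 5319 and Cox4i2 3, and Cox8a had 5472 whereas Cox8b and Cox8c had 0, where a count of 0 allows up to 3 UMIs. Cox6b1 had 3259 and the testis form Cox6b2 31, 18 of them in GC B-like cells and 1 in follicular cells. Ndufa4 had 3296 and its paralogue Ndufa4l2 2. In the COX7A family, Cox7a2 had 2074 UMIs, Cox7a2l, which joins complexes III and IV into supercomplexes, 1658, and the muscle form Cox7a1 14. Cox7a2 gave 66.5% ± 5.28 of the family's UMIs in GC B-like cells (range 57.8% to 72.5%) and 49.6% ± 4.74 in follicular cells (43.4% to 56.1%, mean ± SD over 6 mice), with no overlap.

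Summed over all 90 genes, GC B-like cells had the highest levels of the 4 named states described here, followed by activated, marginal zone and follicular cells. In GC B-like cells the sum was 25708, 22022 and 16820.4 CPM in the LDHA-deficient mice and 22464, 22906 and 22015 in the LDHA-sufficient mice. In follicular cells it was 12564, 12382 and 11953 in the LDHA-deficient and 12098, 12698 and 13055 in the LDHA-sufficient mice. Every GC value lay above every follicular value, and the lowest GC value, in LDHA-deficient mouse 3, rested on 5 cells. The sum was 18063 ± 1925 in activated cells, 14297 ± 936 in marginal zone cells and 12458 ± 404 in follicular cells (mean ± SD, n = 6 mice). Within a mouse, the ratio to follicular cells was 1.76 ± 0.211 for GC B-like cells (range 1.41 to 2.05), 1.45 ± 0.129 for activated cells (1.26 to 1.62) and 1.15 ± 0.0685 for marginal zone cells (1.07 to 1.27). Over mice, GC B-like and activated cells overlapped, and so did activated and marginal zone cells, whereas every marginal zone value lay above every follicular value. Even so, the ratio of GC B-like to activated cells within a mouse was above 1 in 6 of 6 mice, from 1.04 to 1.44. Per cell, GC B-like cells held 297 ± 25.3 member UMIs and follicular cells 45.5 ± 3.55, at 13779 and 3647 total UMIs per cell as means over mice.

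**Figure D1:**
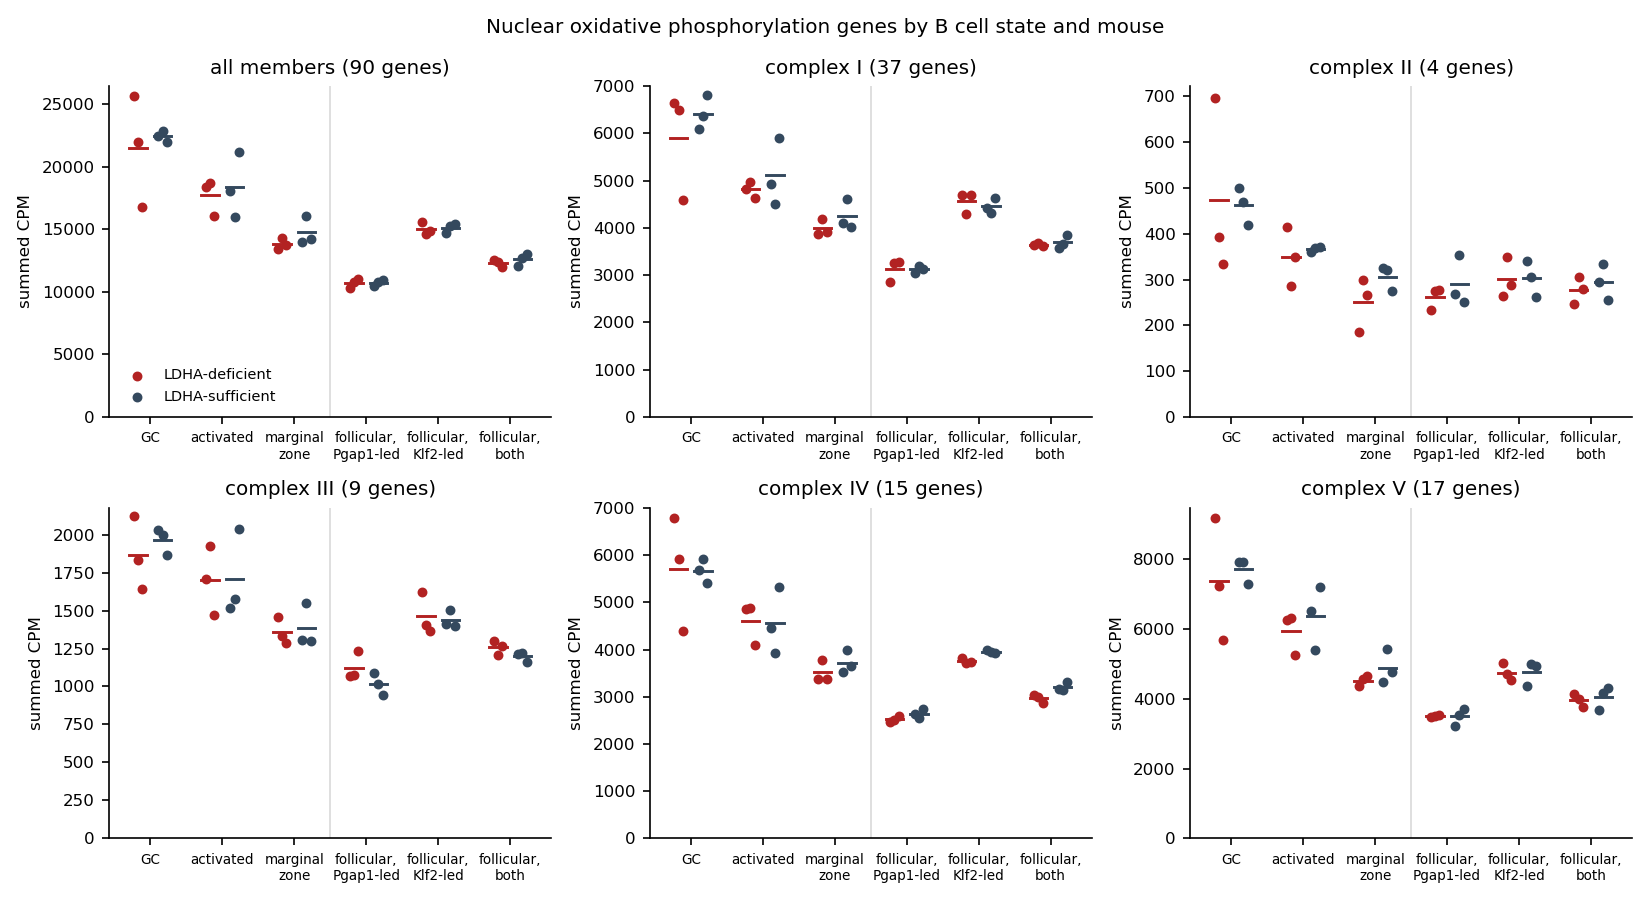
Summed level of all 90 genes and of each complex, in CPM on the vertical axis, by B cell state on the horizontal axis. Each point is 1 mouse (LDHA-deficient in red, LDHA-sufficient in dark blue), bars are genotype means, and "both" joins the Pgap1-led and Klf2-led follicular clusters. GC B-like cells lie above follicular cells in every mouse for all members (16820 to 25708 against 11953 to 13055), and the Klf2-led cluster lies above the Pgap1-led cluster.

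Gene by gene, 84 members passed the filter on low counts between GC B-like and follicular cells (edgeR quasi-likelihood test with the mouse as block, Benjamini-Hochberg adjusted p under 0.05). Of these, 68 rose in GC B-like cells and 0 fell, where 23.5% of all 5627 genes tested were called higher and 22.2% lower. Their median log2 change was 0.70, against -0.02 over all genes tested. Below the filter were Ndufaf5, Ndufaf6, Ndufaf7, Cox6a2, Cox6b2 and Cox7a1. The members called were 30 of 37 in complex I (median log2 change 0.67), 2 of 4 in complex II (0.46), 7 of 9 in complex III (0.72), 11 of 12 in complex IV (0.84), 17 of 17 in complex V (0.89) and 1 of 5 assembly factors (0.41). When the 9% of cells with the most UMIs were removed, only the 3 LDHA-sufficient mice kept enough GC B-like cells, and 10 of 82 members tested were called higher (median log2 change 0.26), near the 11.3% of all genes. With all cells of the same 3 mice, 62 of 84 members were called higher (median log2 change 0.70), against 19.7% of all genes. The count also moved with the follicular cells used as reference, as described further on. GC B-like cells had 5035 CPM of G2 and M phase markers and 6280 of Malat1, a nuclear noncoding RNA, against 223 of G2 and M phase markers and 18193 of Malat1 in follicular cells. Among the markers of other cells, 8 of 8 T and NK cell markers were detected in GC B-like cells and summed to 10.5 to 358 CPM, against 1.49 to 19.4 in follicular cells with 1 of 8 at 0. The part of these differences in the result was not tested. The 8 myeloid markers summed to 171 to 247 in GC B-like and 189.9 to 234 in follicular cells.

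In complex I, the largest rises were in accessory subunits. Ndufa12, an accessory subunit of the matrix arm, had 83.7, 104 and 136 CPM in the GC B-like cells of the LDHA-deficient mice and 135, 161 and 105 in those of the LDHA-sufficient mice. In follicular cells it had 45.7, 53.7 and 49.9 in the LDHA-deficient and 29.5, 38.1 and 61.9 in the LDHA-sufficient mice, so the states did not overlap (log2 change 1.37 ± 0.22 SE, adjusted p = 4.72e-06). Ndufab1, the mitochondrial acyl carrier protein that is also a complex I subunit, ranged from 168 to 241 (median 196) in GC B-like and from 59.6 to 80.6 (median 73.9) in follicular cells (log2 change 1.36 ± 0.17 SE, adjusted p = 5.43e-08). Ndufb8, a membrane arm subunit, and Ndufb1-ps followed with 1.12 and 1.07. Among the catalytic subunits, Ndufv1, which binds NADH and the flavin, had 74.2 ± 10.2 in GC B-like and 43.1 ± 9.68 in follicular cells (SD, n = 6, log2 change 0.69 ± 0.22 SE, adjusted p = 0.0122). Ndufs1, the largest iron-sulfur subunit, had 57.2 ± 12.8 and 56.0 ± 10.1 in the same states and was not called. Also not called were Ndufa3, Ndufa6, Ndufa7, Ndufb4, Ndufs4 and Ndufs7.

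Of the complex I assembly factors, Ndufaf2 rose in GC B-like cells. This factor is a paralogue of Ndufa12 that joins complex I late in its assembly. Ndufaf2 had 46.5, 46.1 and 52.3 CPM in GC B-like cells of the LDHA-deficient mice and 31.3, 27.0 and 41.8 in those of the LDHA-sufficient mice. In follicular cells it had 9.13, 11.9 and 5.55 in the LDHA-deficient and 13.4, 16.7 and 10.7 in the LDHA-sufficient mice (log2 change 1.58 ± 0.40 SE, adjusted p = 0.00151). The states did not overlap, although these levels rest on few UMIs. The most abundant assembly factors, Ndufaf8 and Ndufaf4, were not called in GC B-like cells, where Ndufaf4 ranged from 0 to 37.4 (median 26.1), against 19.4 to 53.7 (median 37.4) in follicular cells.

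Of the 4 subunits of complex II, which is also an enzyme of the TCA cycle, 2 rose. Sdhb, the iron-sulfur subunit, had 251, 196 and 94.2 CPM in GC B-like cells of the LDHA-deficient mice and 207, 205 and 120.3 in those of the LDHA-sufficient mice. Its follicular levels were 79.9, 74.5 and 86.0 in the LDHA-deficient and 43.0, 90.5 and 49.1 in the LDHA-sufficient mice, below every GC value (log2 change 1.30 ± 0.20 SE, adjusted p = 2.00e-06). Sdhd, a membrane anchor, rose less and ranged from 62.8 to 139 (median 83.9) in GC B-like and 47.2 to 62.6 (median 53.7) in follicular cells (log2 change 0.66 ± 0.21 SE, adjusted p = 0.0121). Sdha, the flavoprotein subunit that oxidises succinate, was not called and overlapped, from 104 to 242 (median 155) in GC B-like and 79.9 to 145 (median 135) in follicular cells. Sdhc, the other anchor, was not called either, from 11.5 to 65.1 (median 36.5) and 19.4 to 48.3 (median 38.5) in the same states. Differences between subunits were not tested.

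In complex III, Uqcr10, a small subunit, had the largest change. Its GC B-like levels were 279, 231 and 209 CPM in the LDHA-deficient and 265, 257 and 246 in the LDHA-sufficient mice. Its follicular levels were 112, 107 and 128 in the LDHA-deficient and 67.1, 102 and 91.8 in the LDHA-sufficient mice, and the states were well apart (log2 change 1.26 ± 0.16 SE, adjusted p = 7.32e-08). Both redox subunits encoded in the nucleus rose: Uqcrfs1, the Rieske iron-sulfur protein, by 0.72 and Cyc1, cytochrome c1, by 0.73 on the log2 scale (adjusted p = 8.99e-04 and 0.00192). Uqcrh, the most abundant gene of the complex, was not called, overlapped and ranged from 392 to 466 (median 428) in GC B-like and 363 to 417 (median 396) in follicular cells. Uqcrc2, a core protein, was not called, whereas its partner Uqcrc1 rose by 0.62.

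All nuclear subunits of complex IV that passed the filter rose in GC B-like cells except Cox7a2l. Cox6a1 had 632, 461 and 534 CPM in GC B-like cells of the LDHA-deficient mice and 430.1, 464 and 371 in those of the LDHA-sufficient mice. In follicular cells it had 212, 204 and 208 in the LDHA-deficient and 247, 226 and 209 in the LDHA-sufficient mice, with no overlap (log2 change 1.04 ± 0.14 SE, adjusted p = 1.08e-07). The largest rise was that of Cox5a (1.07), an early assembled subunit, and the smallest that of Cox7c (0.50). Cox4i1, another early subunit, ranged from 555 to 811 (median 713) in GC B-like and 388 to 474 (median 459) in follicular cells (log2 change 0.59 ± 0.11 SE, adjusted p = 4.13e-05). Cox8a, the smallest subunit, spread more widely in GC B-like cells, from 492 to 1199 (median 759), against 389 to 476 (median 432) in follicular cells (log2 change 0.81 ± 0.16 SE, adjusted p = 3.36e-04). Cox7a2l overlapped, from 115 to 224 (median 159) and 139 to 179 (median 161) in the same states.

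Every complex V gene rose in GC B-like cells, from Atp5l (0.47) to Atp5k (1.22), which encode subunits g and e of the membrane part. The catalytic beta subunit Atp5b ranged from 408 to 654 (median 542) CPM in GC B-like and 240.0 to 307.3 (median 276) in follicular cells (log2 change 0.89 ± 0.13 SE, adjusted p = 5.15e-07). The alpha subunit Atp5a1 ranged from 369 to 660.1 (median 493) and 236 to 288 (median 263) in the same states (log2 change 0.86 ± 0.13 SE, adjusted p = 2.38e-06). Neither gene overlapped between the states. Atp5md, a small subunit linked to the pairing of ATP synthase complexes, rose by 0.99.

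The 3 genes of subunit c were not called in the same states, and differences between the genes were not tested. Atp5g3 had 790.3, 807 and 513 CPM in GC B-like cells of the LDHA-deficient mice and 804, 887 and 633 in those of the LDHA-sufficient mice. Its marginal zone levels were 316, 296 and 347 in the LDHA-deficient and 305.8, 333 and 274 in the LDHA-sufficient mice, which overlapped its follicular levels of 308.3, 316 and 244 in the LDHA-deficient and 293, 341 and 305.1 in the LDHA-sufficient mice. Against follicular cells Atp5g3 thus rose in GC B-like (log2 change 1.22 ± 0.12 SE, adjusted p = 1.76e-10) and activated cells (0.99), and was not called in marginal zone cells (adjusted p = 0.278). Atp5g2 rose in all 3 states, with 0.98 in GC B-like, 0.74 in activated and 0.66 in marginal zone cells. Atp5g1, the least abundant of the 3, rose most in activated cells (1.22), then in GC B-like (0.92) and marginal zone cells (0.75). In marginal zone cells Atp5g3 gave 31.0% of subunit c UMIs (range 28.6% to 34.0%), below its 38.8% in follicular cells (35.1% to 41.9%), with no overlap over the 6 mice. In GC B-like cells the shares were 13.9% for Atp5g1, 42.8% for Atp5g2 and 43.3% for Atp5g3.

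**Figure D2:**
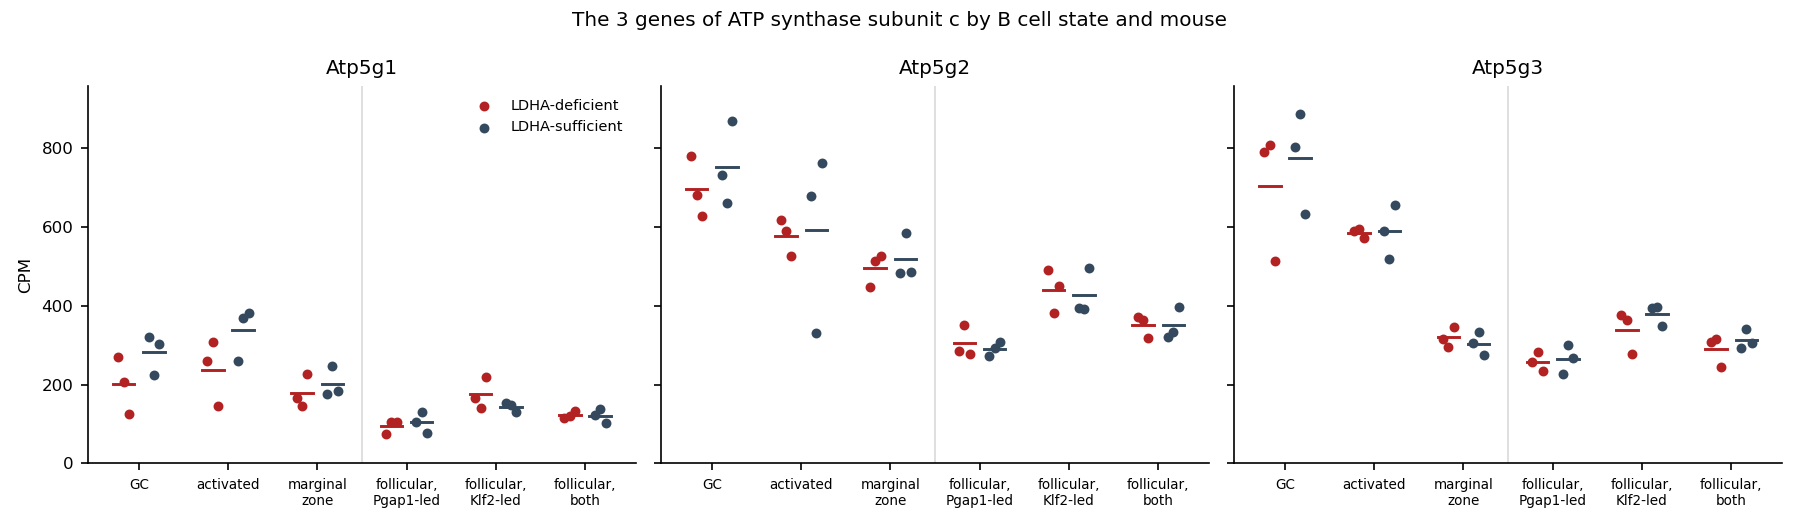
Level of the genes Atp5g1, Atp5g2 and Atp5g3 in CPM on the vertical axis, by B cell state on the horizontal axis, with 1 point per mouse (LDHA-deficient in red, LDHA-sufficient in dark blue) and bars at genotype means. Atp5g3 is high in GC B-like and activated cells and lies at 274 to 347 in marginal zone cells, near its follicular levels, while Atp5g2 lies at 448 to 585 in marginal zone cells.

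In activated B-like cells, 47 of 81 members tested rose against follicular cells and 0 fell, where 21.5% of 4439 genes were called higher and 17.5% lower. The median log2 change of the members was 0.47, against 0.01 over all genes. The called genes were 12 of 37 in complex I, 1 of 4 in complex II, 5 of 9 in complex III, 11 of 12 in complex IV, 16 of 17 in complex V and both assembly factors tested, Ndufaf4 and Ndufaf8. Ndufaf4 had 126, 85.8 and 69.6 CPM in activated cells of the LDHA-deficient mice and 59.1, 31.5 and 147 in those of the LDHA-sufficient mice. In follicular cells it had 41.1, 34.3 and 19.4 in the LDHA-deficient and 53.7, 40.5 and 25.6 in the LDHA-sufficient mice, so that 1 activated value overlapped (log2 change 1.27 ± 0.28 SE, adjusted p = 3.85e-04). Ndufa12 (1.26), Atp5g1 (1.22) and Uqcr10 (1.19) were the other largest rises, and Sdhb rose by 0.59. Below the filter were Cox6a2, Cox6b2, Cox7a1 and the assembly factors Ndufaf1, Ndufaf2, Ndufaf3, Ndufaf5, Ndufaf6 and Ndufaf7. Without the 9% of cells with most UMIs 10 of 77 members rose, near the 12.8% of all genes called higher. With mitochondrial UMIs under 5% 17 of 82 rose (8.76% of all genes), and in the LDHA-sufficient mice alone 23 of 81 (11.8% of all genes). Cells under the 5% limit were clustered anew. The activated class there joined clusters of 139 and 98 cells, so it covers other cells than the 117 of the main clustering. The cluster of 98 was led by Cplx2 and Atp1b1, as was an unnamed cluster of the main clustering. Red cell markers reached 43044 CPM in activated cells of LDHA-sufficient mouse 3 and 7504 in mouse 1 of that genotype, against 11.4 to 806 in the other mice. Without LDHA-sufficient mouse 3, 39 of 81 members rose (18.3% of all genes), and without mouse 1 of that genotype, 40 of 81 (19.6% of all genes).

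In marginal zone B-like cells, 25 of 80 members rose against follicular cells and 0 fell, where 9.96% of 4637 genes were called higher and 7.79% lower. The median log2 change was 0.29, against -0.02 over all genes, and 8 of 36 complex I, 0 of 4 complex II, 1 of 9 complex III, 8 of 12 complex IV and 8 of 17 complex V genes were called. Ndufa9 was below the filter, with the 9 genes below it in activated cells. Atp5d, the delta subunit of ATP synthase, had 258, 233 and 280.4 CPM in marginal zone cells of the LDHA-deficient mice and 232, 275 and 259.9 in those of the LDHA-sufficient mice. In follicular cells it had 148, 177 and 158 in the LDHA-deficient and 139.7, 172 and 211 in the LDHA-sufficient mice, with no overlap (log2 change 0.75 ± 0.12 SE, adjusted p = 1.38e-07). Uqcrh was the complex III gene called, with 467 to 666 (median 503) in marginal zone cells (log2 change 0.53 ± 0.09 SE, adjusted p = 6.10e-07). Ribosomal protein genes were also higher, with a ratio to follicular cells of 1.36 ± 0.0883, against 1.01 ± 0.117 for GC B-like cells. By DESeq2 10 of 80 members rose, where 6.54% of all genes were called higher. With mitochondrial UMIs under 5% 8 of 82 rose (7.23% of all genes), without the 9% of cells with most UMIs 9 of 80 (6.21%), and in the LDHA-sufficient mice alone 12 of 83 (6.36%). Under the 5% limit the follicular class joined clusters of 445, 324 and 230 cells, so the reference changed too.

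The 3 comparisons above share the follicular cells. A direct comparison of GC B-like with activated cells, added after seeing the data, called 4 of 76 members higher and 0 lower, where 10.8% of 2654 genes were called higher and 11.3% lower. The 4 were Ndufb1-ps (log2 change 0.81 ± 0.17 SE, adjusted p = 8.02e-04), Ndufb8 (0.72), Sdhb (0.65) and Cox6a1 (0.47). Ndufb1-ps had 324 to 620.1 (median 557) CPM in GC B-like and 219 to 372 (median 268) in activated cells, which overlap in 1 GC value, that of LDHA-deficient mouse 3. The count ranged from 1 to 34 over other settings, in which 3.27% to 18.4% of all genes were called higher, and it was 2 without LDHA-sufficient mouse 2 or any one of the LDHA-deficient mice. Between the mitotic and the less mitotic GC B-like cluster of the LDHA-sufficient mice, also added after seeing the data, 0 of 83 members were called, where 5.87% of 4597 genes were called higher and 1.22% lower. DESeq2 also called 0. By the edgeR test 1 member, Ndufv1, had an unadjusted p under 0.05, and the median log2 change was 0.04.

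**Figure D3:**
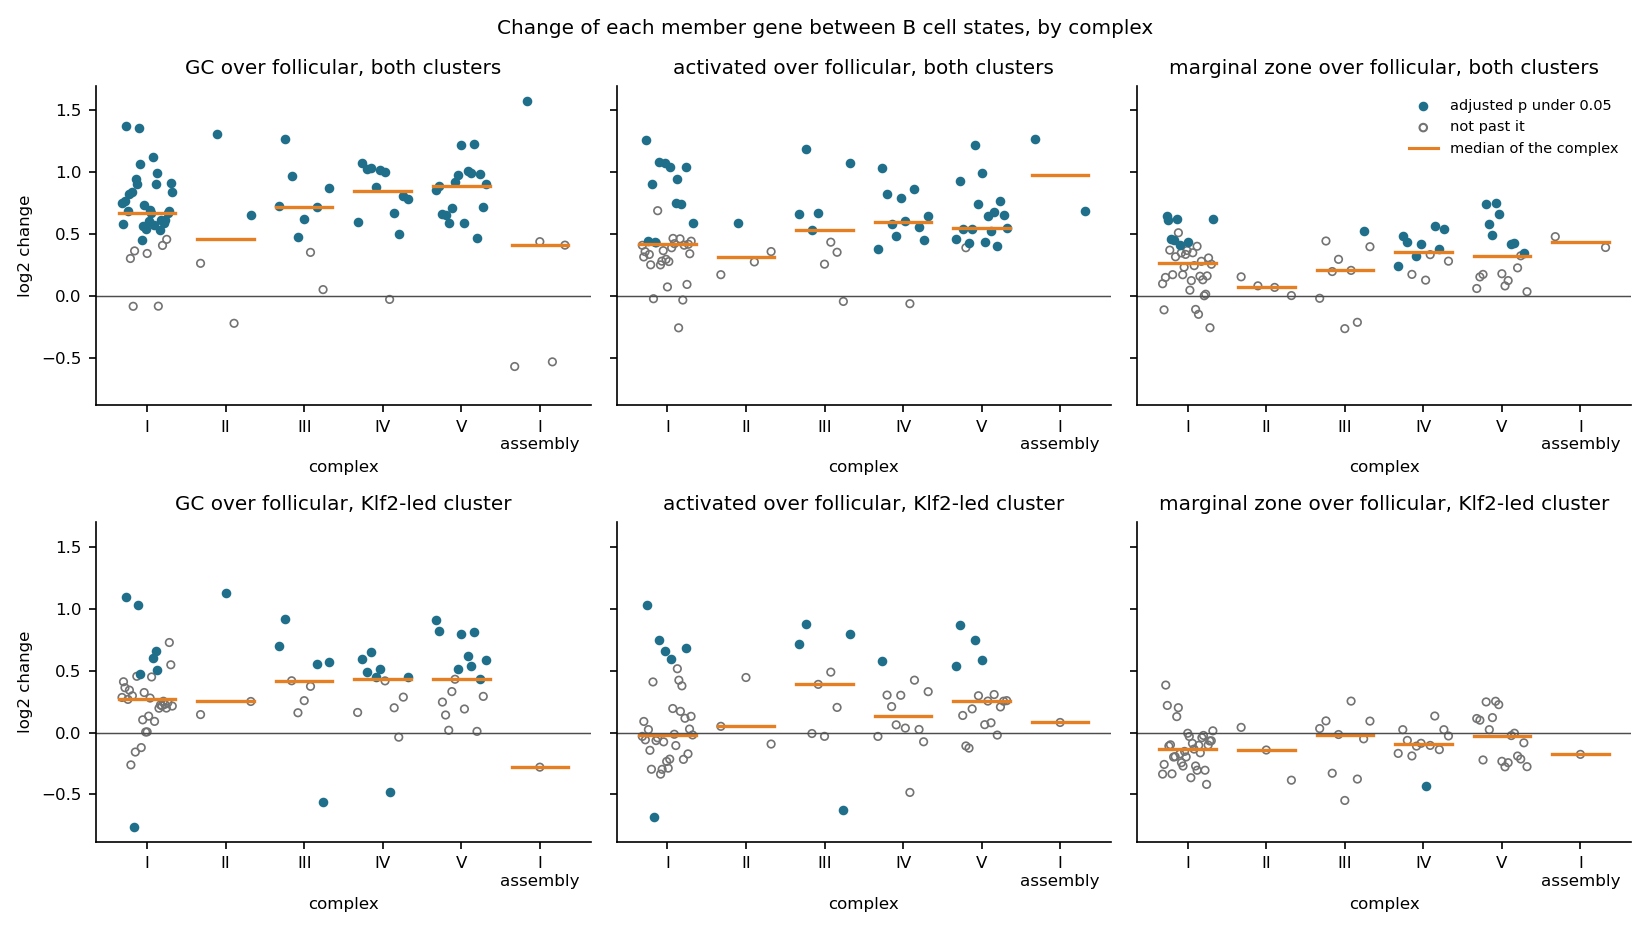
The log2 change of each member against follicular cells (vertical axis) by complex (horizontal axis), in GC B-like, activated and marginal zone cells from left to right, with both follicular clusters as reference above and the Klf2-led cluster alone below. Filled points passed an adjusted p of 0.05, open points did not, and orange bars are medians of a complex. Against both clusters 68, 47 and 25 members are higher, and against the Klf2-led cluster 26, 13 and 0.

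The follicular class was not uniform in these genes. Comparing its clusters was added after seeing the data. The sum over all 90 genes was 10726 ± 282 CPM in the Pgap1-led cluster and 15088 ± 402 in the Klf2-led cluster (SD, n = 6), and lower in the Pgap1-led cluster of every mouse (ratio 0.661 to 0.741). In the Pgap1-led cluster 60 of 78 members fell and 0 rose, where 9.78% of 3773 genes were called higher and 15.2% lower (median log2 change -0.76, against 0.05 over all genes). Uqcrh had 286, 325 and 339.5 in the Pgap1-led cells of the LDHA-deficient mice and 303, 267 and 259 in those of the LDHA-sufficient mice. In Klf2-led cells Uqcrh had 511, 548 and 439 in the LDHA-deficient and 568, 550.1 and 587 in the LDHA-sufficient mice, well apart (log2 change -1.12 ± 0.11 SE, adjusted p = 3.68e-14). The other largest falls were those of Ndufa6 (-1.25), Ndufv3 (-1.19) and Ndufb1-ps (-1.11), and Atp5e fell by 1.05. All 12 complex IV genes tested fell, with 25 of 36 in complex I, 15 of 17 in complex V and 6 of 9 in complex III.

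The members that were not called between the follicular clusters included the catalytic ATP synthase subunits. Atp5a1 had 283 ± 25.9 CPM in Pgap1-led and 224 ± 67.0 in Klf2-led cells, and Atp5b 285 ± 36.6 and 258 ± 33.8 (SD, n = 6). Also not called were the redox subunits Cyc1 (77.8 ± 14.1 and 65.1 ± 21.1) and Ndufs1 (70.7 ± 19.8 and 30.8 ± 18.3), Ndufv1, Uqcrfs1, Uqcrc2, Sdha and Sdhb. Ribosomal protein genes were lower in the Pgap1-led cluster too, with a ratio of 0.582 ± 0.0434. Pgap1-led cells had a median of 3151 UMIs, 21635 CPM of Malat1 and 15.2% of UMIs in long noncoding RNAs. Klf2-led cells had a median of 3883.5 UMIs, 12887 of Malat1 and 13.3% in long noncoding RNAs. The part of these differences in the result was not tested. Mitochondrially encoded genes summed higher in the Pgap1-led cluster in 6 of 6 mice (25785 ± 1519 and 21580.0 ± 1893 in Klf2-led cells), while the test, which rescales libraries by TMM factors, called 0 of these 13 genes (median log2 change -0.01).

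Against the Klf2-led cluster alone, a reference chosen after seeing the data, 26 of 77 members rose in GC B-like cells and 3 fell, where 22.7% of 2992 genes were called higher and 21.7% lower. The median log2 change was 0.32, and the sum over all members was 1.46 ± 0.175 times that of Klf2-led cells (range 1.13 to 1.65). They were 9 of 17 in complex V, 6 of 12 in complex IV, 4 of 9 in complex III, 6 of 35 in complex I and 1 of 3 in complex II. Led by Sdhb (1.12), Ndufa12 (1.10), Ndufab1 (1.03), Uqcr10 (0.92) and Atp5a1 (0.91), they held both catalytic ATP synthase subunits and both redox subunits of complex III. The members that fell were Ndufa6 (-0.76), Uqcrh (-0.56) and Cox7a2l (-0.48). Ndufa6, an accessory subunit of complex I, had 260.3, 219 and 115 CPM in GC B-like cells of the LDHA-deficient mice and 171, 199 and 214 in those of the LDHA-sufficient mice. In Klf2-led cells it had 226, 249 and 393 in the LDHA-deficient and 312, 249.5 and 303 in the LDHA-sufficient mice, and the clusters overlapped (log2 change -0.76 ± 0.18 SE, adjusted p = 7.43e-04).

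In activated cells, 13 of 76 members rose against the Klf2-led cluster and 2 fell, where 18.1% of 2728 genes were called higher and 17.5% lower, a share of members near the background (median log2 change 0.10). Those that rose were led by Ndufa12 (1.03), Uqcr10 (0.88), Atp5b (0.87), Uqcrq (0.79) and Atp5g1 (0.75), and those that fell were Ndufa6 (-0.69) and Uqcrh (-0.62). In marginal zone cells 0 of 75 members rose and 1 fell, Cox7a2 (-0.43), where 9.13% of 2759 genes were called higher and 8.45% lower (median log2 change -0.10). The sum over all members was 0.948 ± 0.0636 times that of Klf2-led cells and above 1 in 1 of 6 mice.

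The 13 protein genes of mitochondrial DNA encode the remaining subunits of complexes I, III, IV and V. In GC B-like cells they summed to 28032, 24743 and 29150.4 CPM in the LDHA-deficient mice and 20177, 20384 and 20273 in the LDHA-sufficient mice. In follicular cells they summed to 23341, 23089.6 and 24644 in the LDHA-deficient and 24026, 24782 and 23943 in the LDHA-sufficient mice. GC B-like cells were thus above follicular cells in every LDHA-deficient mouse and below them in every LDHA-sufficient mouse. Of these genes, 0 rose and 3 fell in GC B-like cells against follicular cells (median log2 change of the 13 genes -0.11), where 22.2% of all genes were called lower, a share of the 13 near the background. Those that fell were mt-Nd2 (-0.44), mt-Nd4 (-0.26) and mt-Co1 (-0.24), which encode subunits of complexes I and IV. In activated cells 4 rose (median 0.16), mt-Nd1 (0.63), mt-Nd4l (0.41), mt-Cytb (0.30) and mt-Co3 (0.27), where 21.5% of all genes were called higher. In marginal zone cells 8 rose (median 0.22), where 9.96% of all genes were called higher. Mitochondrial UMIs also mark damaged cells, and each cell was kept below 10%.

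Genes of electron carriers and of exchange across the mitochondrial membranes rose with the members in GC B-like cells. The test called 10 of 10 tested of a list of 11 (median log2 change 1.02), where 23.5% of all genes were called higher. The genes that rose included Cycs (1.26), which is cytochrome c itself, the ADP/ATP carriers Slc25a5 (1.22) and Slc25a4 (1.18) and the outer membrane channel Vdac2 (1.06). In activated cells 5 of 10 rose (median 0.59, 21.5% of all genes), led by Cycs (1.49), and in marginal zone cells 2 of 10 (median 0.25, 9.96% of all genes). Of 30 assembly genes for complexes II to V, 13 were tested in GC B-like cells and 4 rose (median 0.07), a share not far from the 23.5% of all genes. The 4 were Uqcc2 (0.82), Cox17 (0.77), Coa3 (0.71) and Sdhaf2 (0.62). Of 9 further complex I assembly genes, 0 of 2 tested were called. Among 13 regulators of mitochondrial genes, 0 of 6 tested were called in GC B-like cells (median 0.01). In activated cells 2 of 6 tested rose, Myc (3.06) and Pprc1 (1.87), a coactivator of NRF1, where 21.5% of all genes were called higher. The other 4 log2 changes there were negative and not called, and the median of the 6 was -0.05. Myc was also one of the markers used to name the activated class.

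**Figure D4:**
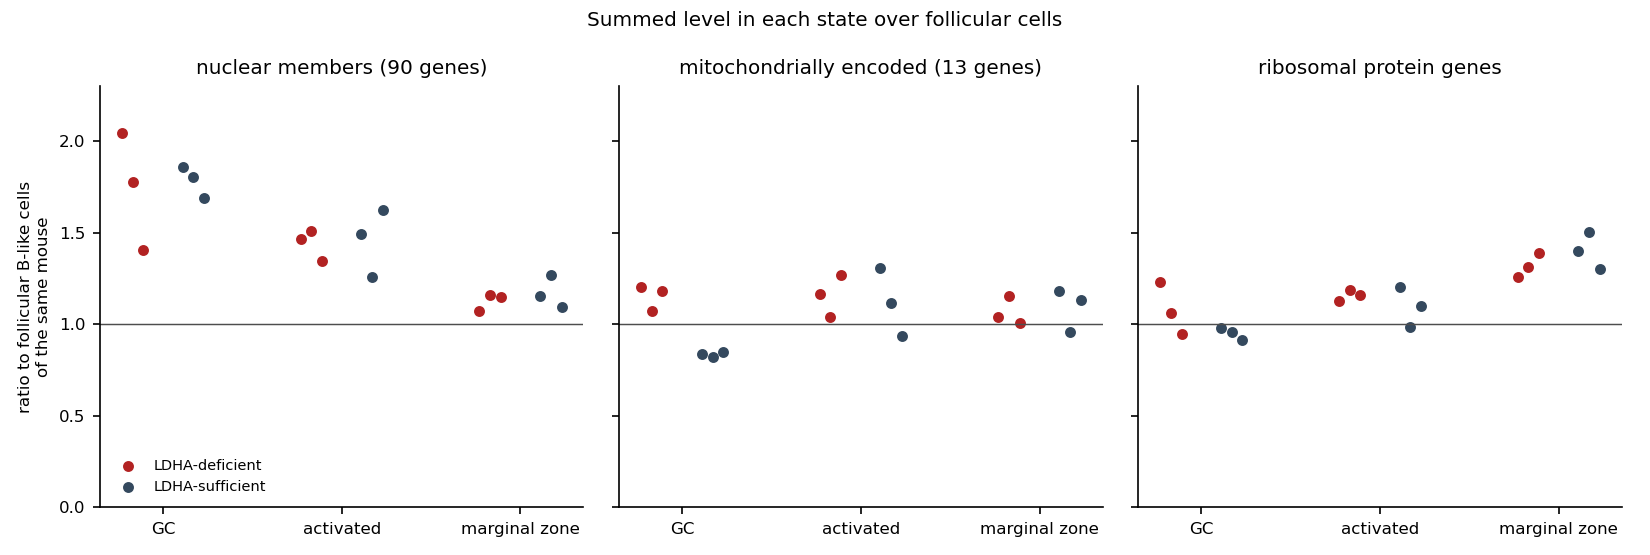
Ratio of the summed level in GC B-like, activated and marginal zone cells (horizontal axis) to that in follicular cells of the same mouse (vertical axis, 1 marked by a line), for the 90 nuclear members, the 13 mitochondrially encoded genes and ribosomal protein genes. Points are mice, LDHA-deficient in red and LDHA-sufficient in dark blue. The nuclear ratio is above 1 in all 6 mice in each state, while the mitochondrially encoded ratio in GC B-like cells is 1.07 to 1.20 in LDHA-deficient and 0.823 to 0.847 in LDHA-sufficient mice.

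Between the genotypes, no member passed the test over all B cells, in non-GC B cells, in GC B-like cells or in activated cells of all 6 mice. Over all B cells, 87 members were tested, 0 were called higher and 0 lower, where 0.196% of 9175 genes were called higher and 1.01% lower. Cox6a2, Cox6b2 and Cox7a1 were below the filter. An unadjusted p under 0.05 was found for 31 members, DESeq2 called 0 (20 at an unadjusted p under 0.05), and 79 of the 87 log2 changes were negative, with a median of -0.20, against 0.02 over all genes. The sum of all members was 15059.7, 14848 and 14389.7 CPM in the LDHA-deficient mice and 17841, 18285 and 15725 in the LDHA-sufficient mice, without overlap. Without LDHA-sufficient mouse 3, 32 of 87 members were called lower, where 9.68% of all genes were, and without a filter on low counts 4 of 90, where 3.19% of all genes were. With the 9% of cells with most UMIs removed, the median was -0.10. These sums mix B cell states, and fewer cells of a state and less RNA per cell cannot be told apart in them. GC B-like cells gave 8.83%, 5.16% and 8.68% of B cell UMIs in the LDHA-deficient mice and 42.3%, 46.2% and 14.0% in the LDHA-sufficient mice. G2 and M phase markers summed to 648, 431 and 855 CPM in the LDHA-deficient and 2275, 2107 and 983 in the LDHA-sufficient mice, and plasma cell markers to 842, 381 and 678 in the LDHA-deficient and 2738, 1535 and 3217 in the LDHA-sufficient mice. Their part in the result was not tested.

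The members with the smallest p over all B cells were Ndufa11, a membrane arm subunit of complex I, with Atp5b, Atp5g1, Atp5g3 and Atp5k of complex V. Ndufa11 had 116, 95.8 and 102 CPM in the LDHA-deficient and 149, 153 and 125 in the LDHA-sufficient mice (log2 change -0.44 ± 0.12 SE, adjusted p = 0.0865). Atp5g3 had 405, 399 and 373 in the LDHA-deficient and 569, 623 and 410.0 in the LDHA-sufficient mice (log2 change -0.43 ± 0.13 SE, adjusted p = 0.108). Both were lower in every LDHA-deficient mouse. Atp5b (-0.41), Atp5g1 (-0.37) and Atp5k (-0.35) had adjusted p-values of 0.0912, 0.100 and 0.122. In non-GC B cells Ndufa11 had 109.9, 93.5 and 99.2 in the LDHA-deficient and 122, 102 and 111 in the LDHA-sufficient mice, which overlap. Atp5g3 had 369, 376 and 361 in the LDHA-deficient and 386, 399.8 and 378 in the LDHA-sufficient mice, a gap narrower than the spread within either genotype. By complex, the medians over all B cells were -0.28 in complex V, -0.26 in complex IV, -0.21 in complex I, -0.15 in complex II and -0.14 in complex III.

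Within classes the differences were small or imprecise. In non-GC B cells the members summed to 14189, 14458 and 14186 CPM in the LDHA-deficient and 14449, 14612 and 14954 in the LDHA-sufficient mice, which overlap. Ndufaf6, Cox6a2, Cox6b2 and Cox7a1 were below the filter. There 0 of 86 members were called, where 0.0119% of 8420 genes were called higher and 0.0713% lower. The median log2 change was -0.05, 1 member had an unadjusted p under 0.05, and DESeq2 called 0 (0 at an unadjusted p under 0.05). That member was Ndufb11, a membrane arm subunit of complex I, with 157, 180.0 and 154 in the LDHA-deficient and 199.5, 186 and 204 in the LDHA-sufficient mice (log2 change -0.27 ± 0.10 SE, adjusted p = 0.895).

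In GC B-like cells 0 of 76 members were called between the genotypes, where 0% of 2796 genes were called in either direction. Ldha itself had 55.8, 127 and 20.9 CPM in the LDHA-deficient and 368, 319.9 and 235 in the LDHA-sufficient mice and was not called here (log2 change -2.15, adjusted p = 0.107). The filter left out 14 members, namely the 8 assembly factors, Ndufa9, Ndufs1, Sdhc, Cox6a2, Cox6b2 and Cox7a1. The median log2 change of the members was 0.03, 1 member had an unadjusted p under 0.05, and DESeq2 called 0 (1 at an unadjusted p under 0.05). It was Cox6a1, with 632, 461 and 534 CPM in the LDHA-deficient and 430.1, 464 and 371 in the LDHA-sufficient mice (log2 change 0.45 ± 0.20 SE, adjusted p = 0.641). These genotypes overlapped. The 5 to 9 GC B-like cells per LDHA-deficient mouse limit the precision, and the 95% interval of Atp5b, for example, ran from -0.71 to 0.06 on the log2 scale. In the LDHA-deficient mice 18 of 21 GC B-like cells lay in the mitotic cluster, against 93 of 153 in the LDHA-sufficient mice. Of the mitochondrially encoded genes, 0 of 13 were called, although all 13 log2 changes were positive (median 0.57). Between the mitotic and the less mitotic cluster of the LDHA-sufficient mice, all 13 were negative (median -0.37) and 0 were called.

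In activated B-like cells of all 6 mice, which entered with at least 10 cells each, a setting added after seeing the data, 0 of 77 members were called, where 0% of 2767 genes were called higher and 0.0723% lower (median log2 change -0.03). By the edgeR test 0 members had an unadjusted p under 0.05. The minimum of 20 cells set for this comparison left 2 LDHA-deficient mice and 1 LDHA-sufficient mouse, whose own spread cannot be seen and is assumed to be that of the other genotype. That test called 0 of 80 members, where 0.334% of 3887 genes were called higher and 0.232% lower, DESeq2 on the same mice also called 0, and with 1 mouse in a genotype neither compares the genotypes beyond that mouse. Ndufs8, an iron-sulfur subunit of complex I, had the smallest p. It had 77.3, 103 and 89.5 CPM in the LDHA-deficient and 177, 126 and 137 in the LDHA-sufficient mice (log2 change -0.68 ± 0.35 SE, adjusted p = 0.993), with no overlap. Ldha itself fell in these cells by 3.05 on the log2 scale (adjusted p = 1.00e-07).

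**Figure D5:**
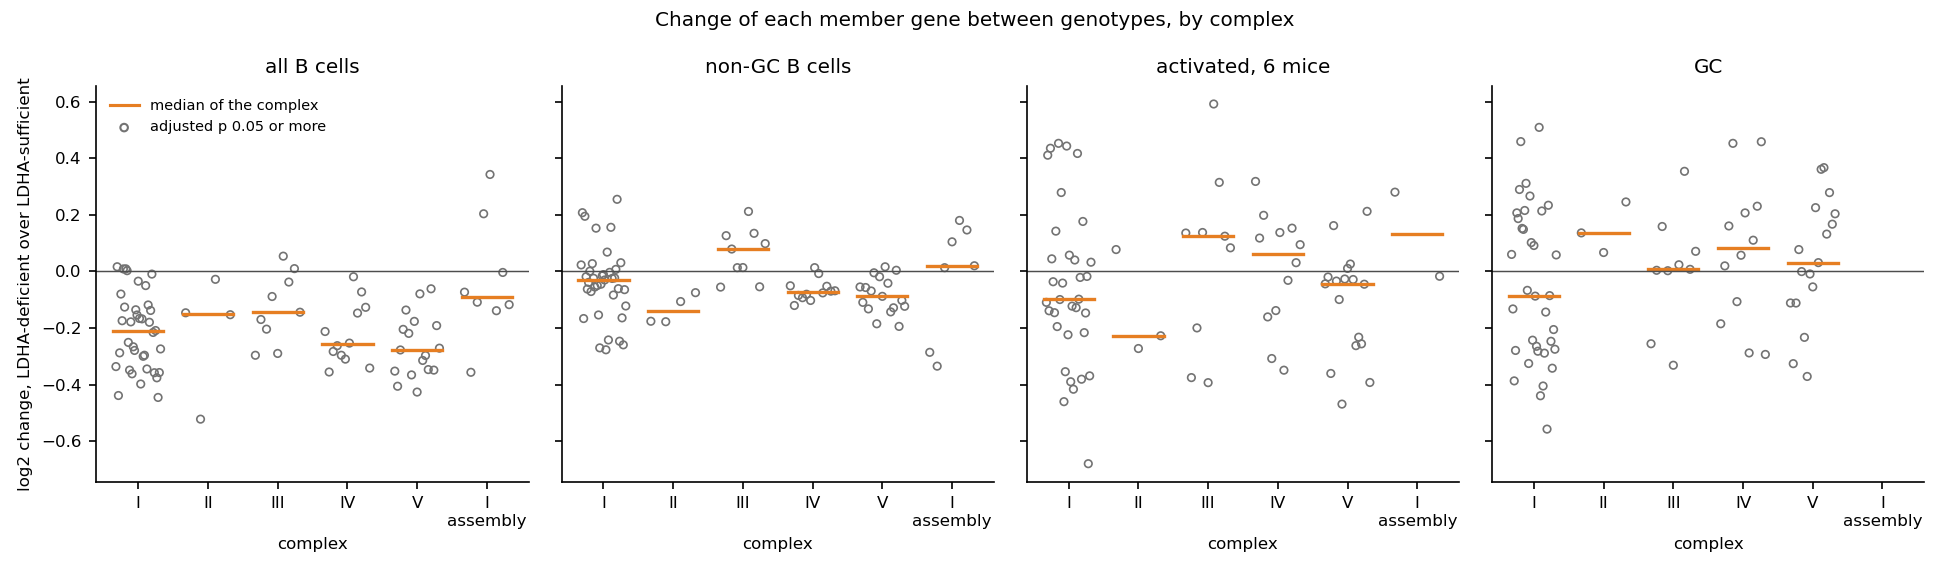
The log2 change of each member, LDHA-deficient over LDHA-sufficient (vertical axis), by complex (horizontal axis), in all B cells, non-GC B cells, activated cells of 6 mice and GC B-like cells. Every point is open because no member passed an adjusted p of 0.05, and orange bars are medians of a complex. The medians of the complexes lie below 0 in all B cells, at -0.28 in complex V, and the median of all members in non-GC B cells is -0.05.

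The difference of the genotype effect between GC B-like cells and the non-GC B cells was tested directly with the mouse as block. Of 88 members, 0 were called, where 0.011% of 9099 genes were called higher and 0.033% lower. The median was -0.11, against -0.15 over all genes, 2 members had an unadjusted p under 0.05 and DESeq2 called 0 (0 at an unadjusted p under 0.05). The 2 were Ndufs4, an accessory subunit of complex I (difference of log2 changes -1.04 ± 0.42 SE, adjusted p = 0.559), and Ndufaf4 (difference of log2 changes -1.51 ± 0.72 SE, adjusted p = 0.710), which had 0 UMIs in GC B-like cells of LDHA-deficient mouse 2, where a count of 0 allows up to 3. With DESeq2 size factors in place of TMM, the median over all genes was -0.03 and that of the members 0.01, so the sign of the members' median follows the scaling. Of the 13 mitochondrially encoded genes, 0 were called in this test, with 13 positive estimates and a median of 0.45.

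Over 17 sums of a mouse and a named state with at least 20 cells, the genes outside the set whose log2 level was most like the members' sum, among 6169 genes, were by Pearson's r Actb (0.965), Cfl1 (0.932), Oaz1 (0.916), Snrpe (0.911) and Prdx1 (0.902). Actb and Cfl1 encode actin and the actin-severing protein cofilin, Oaz1 a regulator of polyamines, Snrpe a spliceosome protein and Prdx1 a peroxidase. GC B-like cells entered only from LDHA-sufficient mice 1 and 2. Activated cells entered from LDHA-deficient mice 2 and 3 and LDHA-sufficient mouse 1, and no interferon-responding sum reached 20 cells. The sums of a mouse share its cells and libraries, and GC B-like and follicular cells also differ in depth, so the correlation is a description.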

How the data were processed

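The authors deposited raw UMI counts for 2836 cell barcodes and 32285 genes and, separately, hashtag counts for 2831 of the same barcodes. The submitters' processing notes name mm10, Seurat 4.2.1 and Cell Ranger 6.0.0, whereas the matrix header names Cell Ranger 6.0.2, per the file headers. The heavy chain file was not used here.

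Each hashtag marked 1 mouse. Hashtags were assigned with HTODemux (Seurat 5.3.0, positive quantile 0.99), which gave 1856 single barcodes, 820 doublets and 155 with none. Cells of the same mouse that share 1 droplet cannot be seen this way, and 9.01% of the single barcodes (167) would be such doublets if cells of the 6 mice met in proportion to their numbers. Cells needed at least 500 genes, 1000 UMIs and under 10% mitochondrial UMIs. Clustering used scanpy 1.11.5 and Leiden in igraph 0.11.9 (resolution 0.8, 2000 variable genes, 30 components, 20 neighbours), and a cluster was named where at least 3 markers were 1.5-fold higher and found in 10% of its cells.

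Sums of counts over the cells of a class in each mouse were tested with edgeR 4.0.16 (TMM, filterByExpr, quasi-likelihood test, limma 3.58.1, R 4.3.3) across all genes that passed the filter, with Benjamini-Hochberg adjustment and a threshold of 0.05. DESeq2 1.42.0 was an alternative. A mouse entered with at least 20 cells of a class, or 5 for GC B-like cells and for comparisons between states, which had the mouse as a block. The same mouse gave the sums of both states, while hashtag numbers pair no mice between genotypes. The test was also run on simulated counts with large known changes, drawn without an effect of the mouse. That run does not show how often smaller changes, such as those between genotypes, would be found.

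The genes, lists and comparisons were chosen with earlier results of these data known. Named genes were the 2 members with most UMIs in each complex, the 4 with the largest change in each direction among those called in a comparison, or the 5 with the smallest p where none was called. Isoform families, catalytic subunits, succinate dehydrogenase subunits, Ldha, genes at the limit of 20 UMIs and the 5 most alike genes outside the set were also named. Other members are named as ends of a range or as exceptions, and their values were known when they were picked.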

Additional observations from a re-analysis of the deposited data

Results flagged for a closer look

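Dixon's criterion for a sample far from the others was applied to 56 sets of per-mouse values, of which chance marks about 1 in 20. Each of the 5 it marked rests on 6 mice. The ratio of GC B-like to follicular cells in complex I was 1.27 in LDHA-deficient mouse 3, with the next mouse at 1.70, and against the Klf2-led cluster it was 0.975, with the next at 1.38. That mouse had 5 GC B-like cells. The same ratio in complex II was 2.83 in LDHA-deficient mouse 1 against follicular cells (next 1.69) and 2.64 against the Klf2-led cluster (next 1.597). That mouse had 9 GC B-like cells. The ratio of marginal zone to Klf2-led cells in complex III was 1.03 in LDHA-sufficient mouse 2, with the next mouse at 0.946.

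The summed mitochondrially encoded genes differed between GC B-like and follicular cells in opposite directions in the genotypes, by a mean log2 difference of 0.20 in LDHA-deficient mice and -0.26 in LDHA-sufficient mice. Every mouse of each genotype had the sign of its mean, among 152 sets of values examined for such opposite directions. The difference of the summed values was not tested. Gene by gene, the test of the genotype effect between GC B-like cells and the non-GC B cells called 0 of the 13 genes. In the LDHA-deficient mice 18 of 21 GC B-like cells lay in the mitotic cluster, against 93 of 153 in the LDHA-sufficient mice. Between the mitotic and the less mitotic cluster of the LDHA-sufficient mice, 0 of the 13 genes were called, where 1.22% of all genes were called lower. There 13 of 13 log2 changes were negative (median -0.37). The part of the mitotic share in the result was not tested.

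Cox6a2, the heart and muscle form of a complex IV subunit, had 60.5 CPM in the 95 cells led by myeloid genes that were left out of the comparisons (40 of 660820 UMIs, 95% exact Poisson interval 43.2 to 82.4). In B-lineage cells it had 1.46 (14 of 9569955 UMIs, upper bound 2.45). These intervals cover counting error only. The left-out cells held B lineage markers too, among them Cd79a with 906 UMIs, so they were not free of B cell RNA. The left-out cells also held markers of plasmacytoid dendritic cells, with 6 of 6 detected, summing to 91.3 to 2340 CPM over the mice, against 54.2 to 94.4 in B-lineage cells. By mouse, that sum was 1257, 2325 and 91.3 CPM in the LDHA-deficient and 95.8, 156 and 2340 in the LDHA-sufficient mice, and Cox6a2 had 78.6, 70.5 and 0 CPM in the LDHA-deficient and 0, 0 and 166 in the LDHA-sufficient mice, where a count of 0 allows up to 3 UMIs. The 3 mice with Cox6a2 were those with the highest sums. Among the markers were Klk1 (199 UMIs in the left-out cells and 14 in B-lineage cells), Siglech (113 and 12) and Ccr9 (77 and 13). With hashtag calls by ratio, Cox6a2 was among the 10 leading genes of a cluster of 30 cells led by Klk1, Siglech, Fkbp11 and Ccr9. Their part in the result was not tested.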

How the results depend on the processing

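Between genotypes, members called lower over all B cells numbered 4 without a filter on low counts and 0 to 32 when 1 mouse was left out, 32 being the value without LDHA-sufficient mouse 3. For GC B-like against follicular cells, 10 were higher with the 9% of cells of most UMIs removed, and, chosen after seeing the data, 26 higher and 3 lower against the Klf2-led cluster and 42 higher with the less mitotic GC cluster alone. For activated cells, 29 were higher with no filter on low counts, 30 with hashtag calls by ratio, 72 (and 1 lower) at clustering resolution 0.4, 17 with mitochondrial UMIs under 5%, 10 with the cells of most UMIs removed, 23 in LDHA-sufficient mice only and 13 (and 2 lower) against the Klf2-led cluster. For marginal zone cells the same settings gave 65 at resolution 0.4, 8 under 5%, 9 with most UMIs removed, 12 in LDHA-sufficient mice only and 0 (and 1 lower) against the Klf2-led cluster. There DESeq2 gave 10, clustering with member genes 47, and the Pgap1-led cluster as reference, chosen after seeing the data, 52. For GC B-like against activated cells, where 4 were higher and 0 lower, no filter gave 2 higher and 1 lower, DESeq2 1 higher, hashtag calls by ratio 24 and 1, resolution 0.4 34 and 3, clustering with member genes 13 higher, mitochondrial UMIs under 5% 27 higher, most UMIs removed 1 and 1, LDHA-sufficient mice only 1, at least 10 cells 1, and leaving out 1 mouse 2 to 6 higher. For the Pgap1-led against the Klf2-led cluster, leaving out 1 mouse gave 0 to 1 higher, and no replicate block 1 higher. Over all alternatives, 10.3% to 29.7% of all genes were called higher for GC B-like, 6.2% to 25.3% for activated and 2.85% to 17.4% for marginal zone against follicular cells, 3.27% to 18.4% for GC B-like against activated cells, and 0.0109% to 9.68% lower between genotypes over all B cells. Clusters were named anew where cells were clustered anew, so the same class name then covers other cells. At resolution 0.4 the activated class held 668 cells, against 117 in the main clustering. The follicular class there was a cluster of 550 cells with Pgap1 but not Klf2 among its leading genes. With mitochondrial UMIs under 5%, the activated class joined clusters of 139 and 98 cells. Causes were not tested. The counts here describe how the number of calls moved with the setting. Where no share of all genes is given for a setting, its count is not read against the background. Removing the cells of most UMIs left 3 mice for GC B-like cells, and all cells of those mice gave 62 higher against follicular cells and 1 against activated cells.

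Signs turned for Atp5e (-0.064) and Sdhd (-0.031) in GC B-like cells with most UMIs removed. Against the Klf2-led cluster they turned for Atp5e (-0.13), Cox4i1 (-0.031) and Cox8a (-0.075) in activated cells, and for Cox4i1 (-0.17), Cox6b1 (-0.11), Ndufa3 (-0.10), Ndufb1-ps (-0.17) and Uqcrh (-0.051) in marginal zone cells. With hashtag calls by ratio, they turned for Ndufa10 (-0.31) and Ndufs8 (0.020) between genotypes in activated cells. In the test of the genotype effect between GC B-like cells and the non-GC B cells, Ndufaf4 turned with hashtag calls by ratio (0.28) and at resolution 0.4 (0.30). None of these values passed the threshold.

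Without the mouse as a block, state comparisons called 72 members higher in GC B-like, 49 in activated and 22 in marginal zone cells, 5 between GC B-like and activated cells and 60 lower between the follicular clusters. The share of all genes called without the block is not given here, so these counts only describe how the number of calls moved. Of the counts under other settings, 302 stayed within 1.5 times the value reported and 44 did not, and of the values of named genes, 1424 kept direction and side of the threshold, 185 lost the call and 14 gained it. The genotype test in activated cells could not be fitted without LDHA-sufficient mouse 1, LDHA-deficient mouse 2 or 3, or with most UMIs removed, and that in GC B-like cells not with most UMIs removed or at least 10 cells. The few GC B-like cells in LDHA-deficient mice limit precision.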
